A study of Sus scrofa with 10 samples.

Results

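Ion channels and neurotransmitter-gated receptors were followed across aortic valve leaflets of female swine. The genes were chosen by symbol: every gene with exactly 1 symbol in the array annotation that begins with KCN, CACN, SCN and a digit, CLCN, CLIC, TRP followed by C, M or V, CHRN, GABR, GRI and a letter, RYR, ITPR or P2R. That rule found 48 of the 6765 genes measured, read by 80 probe sets, the groups of short probes with which an Affymetrix array reads a transcript. Each gene was read through its brightest probe set, by the mean of the 10 arrays. The label of ion channels and receptors holds for most, but not all, of the genes that the rule caught. GRIP1 and TRPC4AP encode adaptor proteins, P2RY12 and P2RY2 encode G protein-coupled receptors for nucleotides, and 13 genes encode auxiliary subunits or proteins that bind channels. No gene that begins with SCN and a digit met the rule.

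The 10 arrays fell into 3 groups. Rapacz Familial Hypercholesterolemic (RFH) swine, a breed with inherited high blood cholesterol, gave leaflets of 3 juvenile samples at an age of 3 months and of 4 adult samples at 2 years. The third group was 3 samples of wild-type (WT) juveniles, also at 3 months. The WT animals are labelled as Rapacz Wisconsin Miniature Swine of genotype RFH -/-, and all groups ate standard chow. The design compared adult with juvenile RFH, and juvenile RFH with juvenile WT. The adult and juvenile RFH groups differ in age and in length of disease, which cannot be told apart here.

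Ion channels are pores that let potassium, calcium, sodium or chloride cross a membrane when voltage, a ligand, calcium or stretch opens them. In cells that do not fire action potentials, such as the fibroblast-like interstitial cells and the endothelium of a valve, potassium channels set the membrane voltage, and that voltage sets how much calcium enters. Calcium also leaves internal stores through ryanodine and inositol trisphosphate (IP3) receptors, and extracellular ATP and ADP act through P2X channels and P2Y receptors. Valve interstitial cells can contract, and calcium is among the signals that drive contraction.

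Values are on the log2 scale, so that a difference of 1 is a doubling. Array medians lay between 6.96 and 7.03, and 27 of the 48 genes lay below the median of every array. No detection calls were used here, so a low value may be background, and differences of such genes may be understated. Of the 9 valve interstitial markers measured, 8 lay well above the array medians in all groups, such as VIM at 14.45, 14.39 and 14.33 in WT, juvenile RFH and adult arrays. The exception was COL3A1, at 7.33, 7.34 and 6.66. In adult against juvenile RFH POSTN fell by 1.06, VCAN by 0.80 and COL3A1 by 0.68, and the other 6 were not called. The labels do not say whether each array came from a separate animal, and the p-values measure the spread between these samples. Juvenile RFH replicate 2 stood apart by its heart muscle transcripts, with a mean of 8.63 over 14 cardiac muscle markers against 5.49 and 5.80 in replicates 1 and 3. Endothelial markers averaged 9.53, 9.78, 8.75 and 9.34 in adult RFH replicates 1 to 4, 8.52 to 8.81 in the juvenile RFH arrays and 8.13 to 8.48 in the WT arrays. The macrophage markers averaged 10.21, 10.35, 9.74 and 9.75 in the same adult arrays, 9.27 to 9.34 in the juvenile RFH arrays and 8.87 to 9.01 in the WT arrays. Of the other marker lists, lymphocytes had 0 of 9 members called between adult and juvenile RFH, neurons and glia 3 of 10 up, melanocytes 0 of 4, adipocytes 2 of 6 up and erythroid cells 2 of 3 down. Over all marker lists 22 of 88 genes were called, 25%, with 16 up and 6 down. Of all 6765 genes 19.3% were called, 11.4% up and 7.85% down. In adult RFH replicate 3, the control probe sets at the 3' end exceeded those at the 5' end, a measure of RNA quality, by 2.84, against 1.75 to 2.25 in the other adult arrays. In a tissue sample, more cells of a type and more RNA per cell cannot be told apart. The 12 probe sets for poly-A controls, RNAs added to each sample, averaged 7.34 ± 0.20 (SD, n = 4) in the adult arrays, 6.44 ± 0.023 (SD, n = 3) in the juvenile RFH arrays and 6.72 ± 0.082 (SD, n = 3) in the WT arrays. This technical measure separated all 3 groups, the juvenile groups included, and its part in the results was not tested.

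In adult against juvenile RFH leaflets, 10 of the 48 genes changed, 5 up and 5 down. The muscle nicotinic receptor gene CHRNA1 fell 3.79-fold, and the chloride intracellular channel gene CLIC2 rose 3.00-fold. The other 8 changed by between 1.30-fold and 1.69-fold: KCNN4, CACNB4, CLIC1 and P2RY12 rose, and KCNJ5, RYR3, CACNB3 and TRPM7 fell. A change was called at an adjusted p under 0.05 in limma, with Benjamini-Hochberg adjustment over all 23999 probe sets. Of all 6765 genes 19.3% were called, 11.4% up and 7.85% down, against 20.8% of the channel and receptor genes, 10.4% up and 10.4% down. The share called was therefore near that of all genes, and the median change was 0.0078 for the 48 genes and 0.017 for all genes. In 13 of the 48 the adult arrays did not overlap the juvenile RFH arrays, 27.1% against 29.9% of all genes. All 10 called genes also had every adult array on the same side of all 6 juvenile arrays, WT included. The count of 10 fell to 6 when juvenile RFH replicate 1 was left out and to 5 for replicate 3 of that group, and it reached 16 when adult RFH replicate 3 was left out. With only the RFH arrays fitted it was 6. Calls over all 23999 probe sets, 4025 in the main fit, also moved with the arrays fitted. The swing is therefore not given as a trait of the 48 genes.

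**Figure D1:**
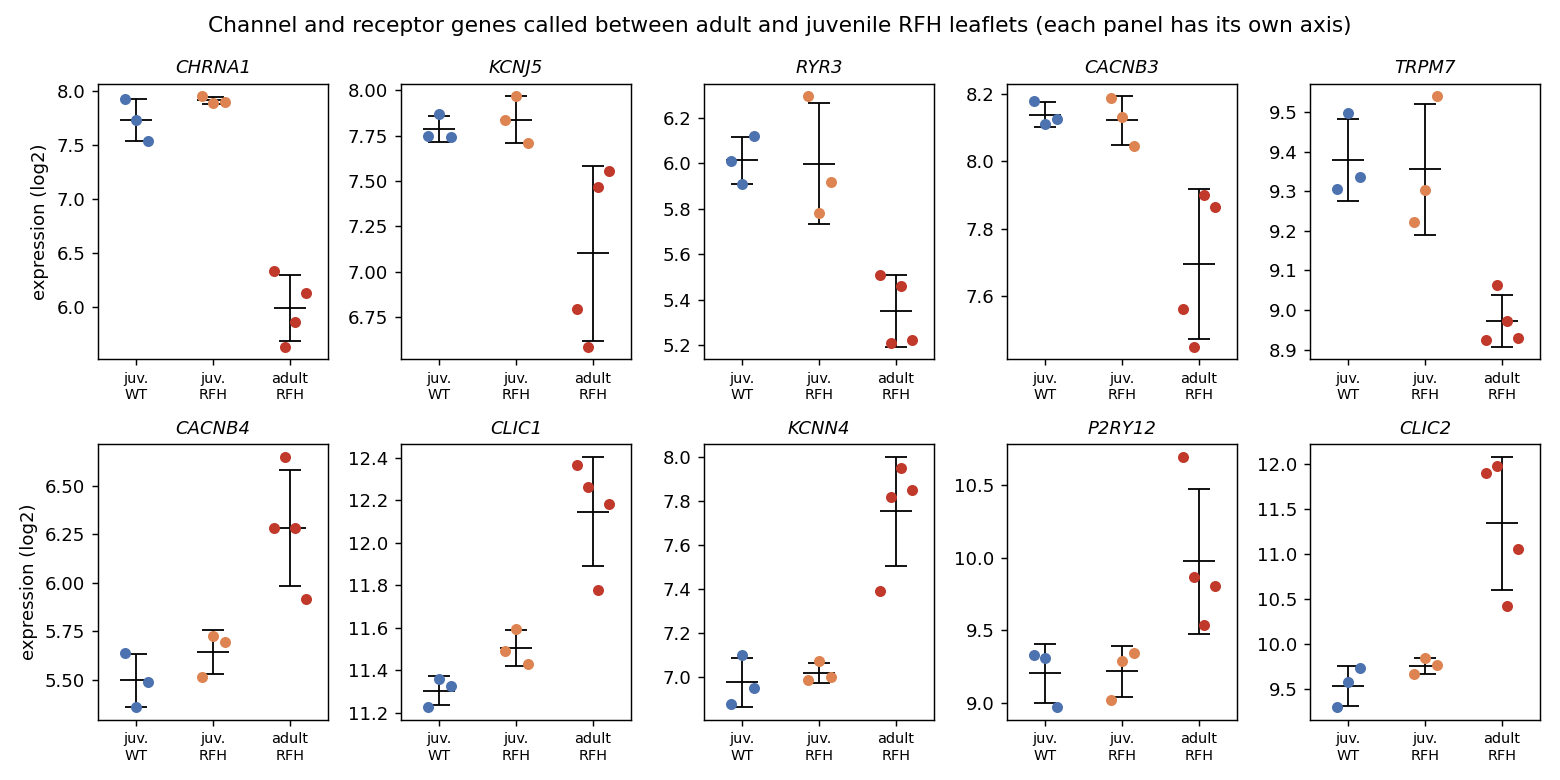
Expression (log2, vertical axis) of the 10 genes called between adult and juvenile RFH leaflets, ordered from the deepest fall to the highest rise; points are arrays, and bars are the mean ± SD of 3 WT, 3 juvenile RFH and 4 adult arrays. In every panel the 4 adult arrays lie on one side of the 6 juvenile arrays, and for KCNJ5 and CACNB3 adult replicates 1 and 2 lie below adult replicates 3 and 4.

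CHRNA1 encodes the alpha subunit of the muscle-type nicotinic acetylcholine receptor, a cation channel opened by acetylcholine. Its values were 6.34, 5.64, 5.87 and 6.13 in the 4 adult arrays, 7.95, 7.89 and 7.90 in the juvenile RFH arrays and 7.93, 7.73 and 7.54 in the WT arrays. All adult arrays lay more than 1 log2 unit below every juvenile array, and the juvenile groups overlapped. The mean was 5.99 ± 0.31 (SD, n = 4) in adult RFH against 7.91 ± 0.035 (SD, n = 3) in juvenile RFH, so it fell by 1.92 ± 0.16 (SE, limma adjusted p = 5.4e-05). Among the 6765 genes that was the fall of rank 6 by size, and the gene ranked 29 by p. It was called whichever array was left out, with changes between -2.04 and -1.80. The adult values lay under the array medians. Of 14 cardiac muscle markers 12 had negative differences, with a median of -1.09 and none called, beside the wide juvenile RFH spread that replicate 2 gives them (SD of MYH7 2.91). Without that array the cardiac mean was 5.49 and 5.80 in juvenile RFH and 5.56 to 5.84 in adult arrays, and CHRNA1 read 7.89 in it against 7.95 and 7.90 in the other 2. Of 7 smooth muscle markers all had negative differences and 1 fell, ACTA2 by 1.00 (limma adjusted p = 0.0103). The part of these markers in the fall was not tested. Between these groups valve interstitial markers moved with CHRNA1, at 11.69 to 12.23 in adult RFH and 12.45 to 12.51 in juvenile RFH arrays. Within the adult group the order differed. Both were lowest in replicate 2, but CHRNA1 was highest in replicate 1 and the marker mean in replicate 4. Of these markers 3 of 9 fell, 33.3% against 7.85% down over all genes, and their part in the fall of CHRNA1 was not tested. The neuronal subunit gene CHRNB2 had means of 6.06 in adult and 6.06 in juvenile RFH, a difference with a 95% interval of -0.26 to 0.26.

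Among the potassium channels, 1 calcium-activated channel rose and 1 inward rectifier fell, and the other 20 of 22 genes, auxiliary subunits included, did not pass. Over all genes 11.4% rose and 7.85% fell. KCNN4 encodes the intermediate-conductance calcium-activated channel, which makes the membrane voltage more negative when calcium rises. It read 7.39, 7.82, 7.95 and 7.85 in the 4 adult arrays, 6.99, 7.07 and 6.999 in the juvenile RFH arrays and 6.88, 7.10 and 6.95 in the WT arrays. The adult arrays were all higher than the juvenile arrays, with the smallest step in adult replicate 1. KCNN4 rose by 0.73 ± 0.13 (SE, limma adjusted p = 0.00448), called whichever array was left out. By their brightest probe sets its relatives had positive differences that did not pass. KCNMA1, the large-conductance calcium-activated channel, differed by 0.35 (limma adjusted p = 0.0672). The small-conductance channel gene KCNN3 differed by 0.43 (adjusted p = 0.135, and 0.58 with 0.0188 without adult RFH replicate 3). The second KCNN3 probe set went the other way, by -0.21 (limma adjusted p = 0.232), and the mean of both gave 0.11. The second KCNMA1 probe set differed by 0.28 (limma adjusted p = 0.380).

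KCNJ5 encodes a G protein-gated inward rectifier that lets potassium through after a receptor releases G protein subunits. Its values were 6.79, 6.59, 7.47 and 7.56 in the 4 adult arrays, 7.84, 7.97 and 7.71 in the juvenile RFH arrays and 7.75, 7.87 and 7.74 in the WT arrays. Adult replicates 1 and 2 were low, and adult replicates 3 and 4 lay close under the juvenile range. The valve interstitial marker means stood in the same order, at 11.87, 11.69, 12.19 and 12.23 in adult replicates 1 to 4, and their part in the fall was not tested. KCNJ5 fell by 0.74 ± 0.21 (SE, limma adjusted p = 0.0392), a call that held in 2 of 10 fits that each left out 1 array, those without adult RFH replicate 3 or 4. The second KCNJ5 probe set differed by -0.27 (adjusted p = 0.143). KCNJ3, whose product pairs with that of KCNJ5, differed by -0.057, and KCNJ1, KCNJ2 and KCNJ8 by -0.055, -0.11 and 0.068. Of the 6 voltage-gated potassium channel genes, KCNF1, a subunit that modulates its partners, had the smallest p, with means of 5.64 in adult and 5.99 in juvenile RFH (limma adjusted p = 0.123). KCNA2 and KCNA6, delayed rectifiers, differed by 0.10 and 0.015, and KCNB2, KCNH2 and KCNQ1 by -0.38, 0.022 and 0.10. The 8 auxiliary genes differed by -0.19 to 0.076, from KCNIP2 to KCNIP1. KCNE2, KCNE3 and KCNE4, small subunits that tune potassium channels, differed by -0.12, 0.066 and -0.050, and KCNMB1, the beta subunit of the large-conductance channel, by -0.029. Second probe sets lay outside that range for KCNE3, at 0.65 with an interval of -0.016 to 1.31 (limma adjusted p = 0.168), and for KCNMB1, at -0.25 (0.635). KCNE1 had the widest adult spread of them, 8.34 to 9.92.

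**Figure D2:**
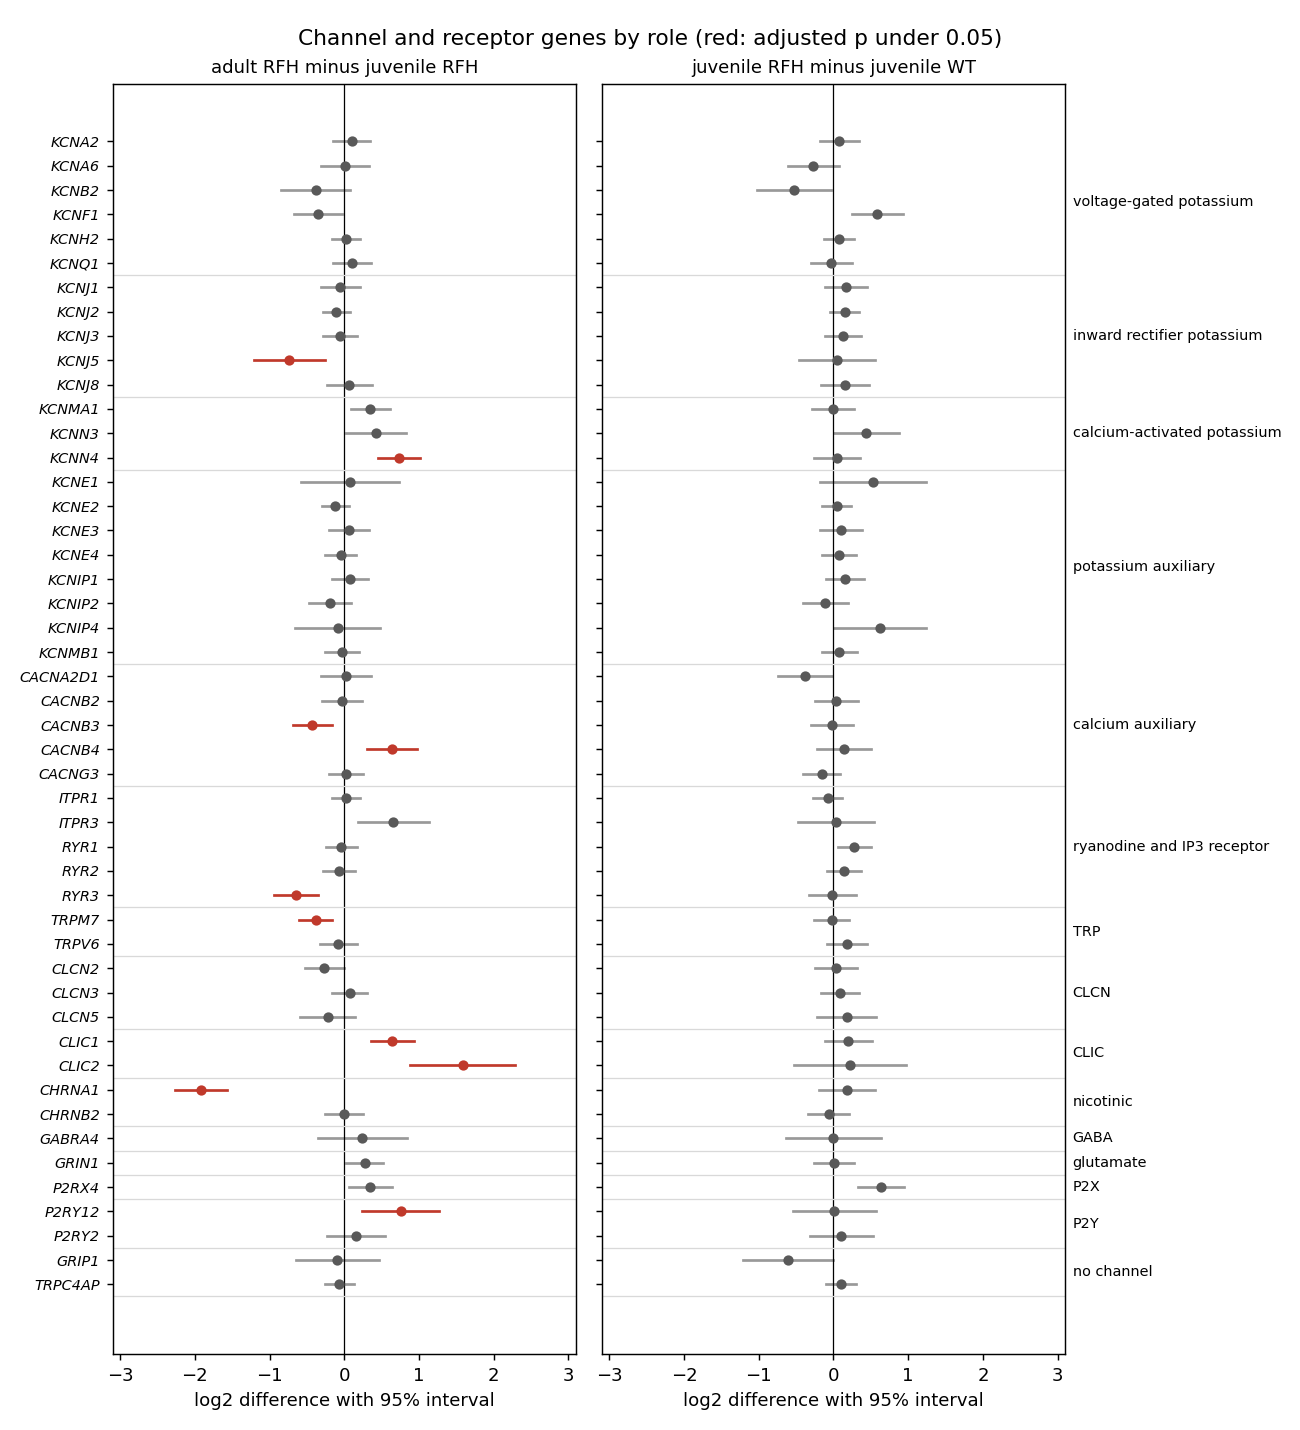
Log2 difference (horizontal axis) of each of the 48 genes with its 95% interval, grouped by role, for adult minus juvenile RFH (left) and juvenile RFH minus juvenile WT (right); red marks an adjusted p under 0.05. On the left 5 genes lie to the right and 5 to the left in red, with CHRNA1 at -1.92 and CLIC2 at 1.59 the farthest from 0, and on the right none is red.

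Of 12 genes for calcium channel subunits, TRP channels and calcium release channels 1 rose, CACNB4, and 3 fell, CACNB3, RYR3 and TRPM7, and 8 were not called. Over all genes 11.4% rose and 7.85% fell. The 12 genes pool several roles, and their count is not read as a result. CACNB3 and CACNB4 encode beta subunits, which carry voltage-gated calcium channels to the membrane and tune their opening. CACNB3 read 7.56, 7.45, 7.90 and 7.86 in the 4 adult arrays, 8.19, 8.13 and 8.04 in the juvenile RFH arrays and 8.18, 8.11 and 8.12 in the WT arrays. Here too adult replicates 1 and 2 were lowest, as for KCNJ5. CACNB3 fell by 0.43 ± 0.12 (SE, limma adjusted p = 0.0316), and the call held in 2 of 10 fits that left out 1 array, those without adult RFH replicate 3 or 4. CACNB4 read 6.28, 6.65, 6.28 and 5.91 in the 4 adult arrays, 5.51, 5.72 and 5.69 in the juvenile RFH arrays and 5.64, 5.36 and 5.49 in the WT arrays. Every adult array was above the juvenile arrays, while all 10 values lay under the array medians. CACNB4 rose by 0.64 ± 0.15 (SE, limma adjusted p = 0.0176), and the call was lost without juvenile RFH replicate 1 or 3. The other calcium channel subunit genes measured, CACNA2D1, CACNB2 and CACNG3, differed by 0.021, -0.027 and 0.021.

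RYR3 encodes a ryanodine receptor, a calcium release channel of internal stores. Its values were 5.51, 5.21, 5.46 and 5.22 in the 4 adult arrays, 6.29, 5.78 and 5.92 in the juvenile RFH arrays and 6.01, 5.91 and 6.12 in the WT arrays. The adult arrays lay below all juvenile arrays, the juvenile groups overlapped, and all values lay under the array medians. RYR3 fell by 0.65 ± 0.13 (SE, limma adjusted p = 0.00953), called whichever array was left out, but its 3 other probe sets differed by 0.22, 0.029 and -0.064, and the mean of the 4 gave -0.12, which did not pass. ITPR3, an IP3 receptor, read 6.97, 7.64, 6.89 and 7.72 in adult RFH against 6.45, 6.73 and 6.78 in juvenile RFH replicates. All adult values were higher, with adult replicates 1 and 3 close to the juvenile range, and the difference of 0.66 ± 0.21 (SE) did not pass (limma adjusted p = 0.0614; 0.80 and 0.0221 without adult RFH replicate 3). The second ITPR3 probe set differed by 0.0097. RYR1, RYR2 and ITPR1 differed by -0.039, -0.069 and 0.023.

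TRPM7 encodes a channel for magnesium and calcium that carries its own kinase domain. It read 8.92, 9.06, 8.97 and 8.93 in the 4 adult arrays, 9.22, 9.30 and 9.54 in the juvenile RFH arrays and 9.31, 9.50 and 9.34 in the WT arrays. The adult arrays lay close together below all juvenile arrays, and TRPM7 fell by 0.38 ± 0.10 (SE, limma adjusted p = 0.0245). The second TRPM7 probe set, dimmer by its level, differed by 0.32 in the opposite direction (adjusted p = 0.0826), the mean of both gave -0.034, and the call was lost without juvenile RFH replicate 3. TRPV6, an epithelial calcium channel, differed by -0.078.

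Both CLIC genes rose. CLIC proteins occur in soluble and membrane forms, and CLIC1 is made by many cell types. CLIC2 read 11.90, 11.98, 10.43 and 11.06 in the 4 adult arrays, 9.67, 9.84 and 9.76 in the juvenile RFH arrays and 9.30, 9.58 and 9.74 in the WT arrays. Adult replicates 1 and 2 were highest and replicate 3 lowest, still above every juvenile array. CLIC2 rose by 1.59 ± 0.32 (SE, limma adjusted p = 0.00828), 100th by size of rise among the 6765 genes. CLIC1 read 12.37, 12.26, 11.78 and 12.18 in the 4 adult arrays, 11.49, 11.59 and 11.43 in the juvenile RFH arrays and 11.22, 11.36 and 11.33 in the WT arrays. It rose by 0.64 ± 0.13 (SE, adjusted p = 0.0088), and both CLIC calls held whichever array was left out. Markers of endothelium and macrophages moved with them, with 4 of 11 and 6 of 11 members up and none down. These shares were 36.4% and 54.5%, against 11.4% up over all genes. The 4 adult arrays stood in the same order for CLIC2, for the endothelial mean and for the macrophage mean, with replicate 3 lowest in each. The part of these markers in the rise was not tested. The CLCN genes, chloride channels and chloride-proton exchangers of plasma and endosomal membranes, differed by -0.27 for CLCN2, 0.074 for CLCN3 and -0.22 for CLCN5, and none passed. The other CLCN3 probe sets differed by -0.25, with the adult arrays below all juvenile arrays (limma adjusted p = 0.0568), and by 0.051 (0.766).

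**Figure D3:**
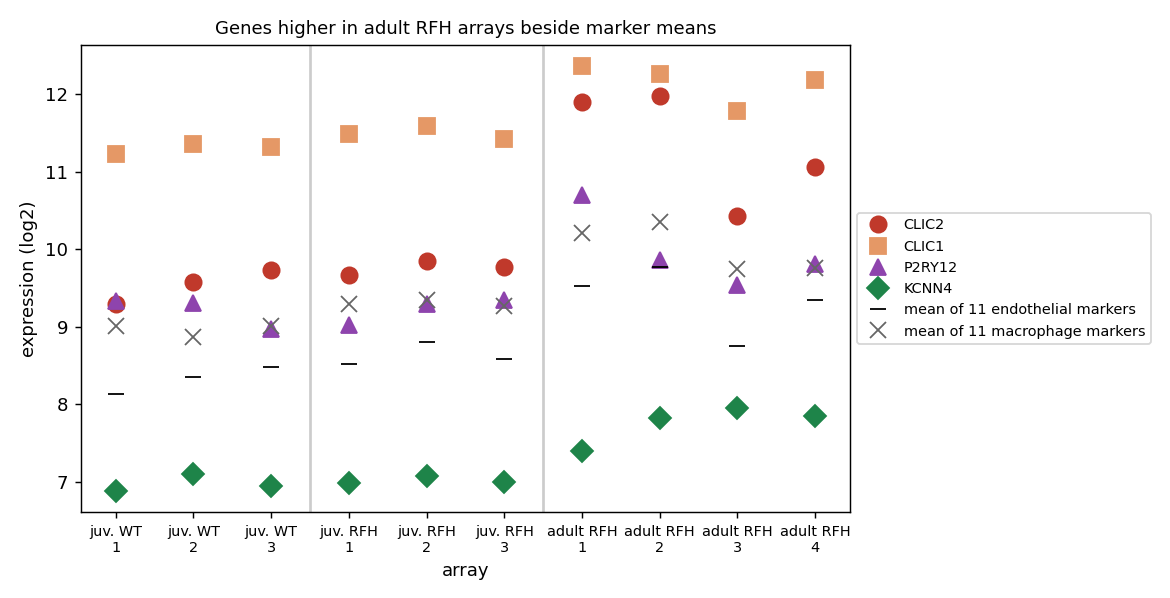
Expression (log2, vertical axis) of 4 genes that rose in adult RFH leaflets in each of the 10 arrays (horizontal axis), with the mean of 11 endothelial and of 11 macrophage markers as a dash and a cross. CLIC2, CLIC1 and P2RY12 are lowest among adult arrays in replicate 3, as are both marker means, whereas KCNN4 is lowest in adult replicate 1.

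Of the nucleotide receptors 1 of 3 rose. P2RY12 encodes the ADP receptor known from platelets and microglia. Its values were 10.69, 9.87, 9.54 and 9.81 in the 4 adult arrays, 9.02, 9.29 and 9.34 in the juvenile RFH arrays and 9.33, 9.31 and 8.97 in the WT arrays. Adult replicate 1 was highest, and adult replicate 3, at 9.54, lay close above the highest juvenile RFH array, at 9.34. P2RY12 rose by 0.76 ± 0.23 (SE, limma adjusted p = 0.0484), just inside the threshold, and the call held in 2 of 10 fits that left out 1 array, those without adult RFH replicate 1 or 3. Platelet markers had 1 of 4 up, 25% against 11.4% up over all genes. Their means were 6.73 to 7.03 in adult RFH and 6.50 to 6.55 in juvenile RFH arrays. Macrophage markers had 6 of 11 up, 54.5%, with means of 9.74 to 10.35 in adult RFH and 9.27 to 9.34 in juvenile RFH arrays. Endothelial markers had 4 of 11 up, 36.4%. The part of these lists in the rise of P2RY12 was not tested. P2RX4, an ATP-gated cation channel of macrophages and endothelium, had a mean of 8.56 in adult against 8.21 in juvenile RFH and did not pass (0.35, limma adjusted p = 0.0948; 0.46 and 0.0126 without adult RFH replicate 3). P2RY2, an ATP and UTP receptor, differed by 0.16. The remaining receptor genes were GABRA4, a GABA-A receptor subunit, which differed by 0.24 (adjusted p = 0.595), and GRIN1, the obligatory NMDA receptor subunit, by 0.28 (adjusted p = 0.119). Without adult RFH replicate 3 both passed, at 0.54 and 0.35 (adjusted p = 0.022 and 0.0426), and so did CLCN2 at -0.35 (0.0425). The adaptors GRIP1 and TRPC4AP differed by -0.092 and -0.065.

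The 32 further probe sets of these genes included none that was called in either comparison. Of the 18 genes whose mean over all arrays was at or above the median probe set, 8 were called, 44.4% against 22.7% of all genes at that level. Of the 30 below it 2 were called, CACNB4 and RYR3, 6.67% against 10.1% of all genes there. For 37 of the 38 genes that were not called, the 95% interval of the adult difference lay inside -1 to 1, and the exception was ITPR3 with 0.18 to 1.13. The spread was wider in adults, with a median SD over the 48 genes of 0.21 in the adult arrays, 0.10 in the juvenile RFH arrays and 0.10 in the WT arrays, and 36 genes had their largest SD in the adult group. This spread was not computed over all genes, so it is not given as a trait of the 48. The 3' minus 5' control measure also had its largest SD in adults, 0.45 against 0.14 in juvenile RFH and 0.093 in WT arrays.

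Genes that work with these channels were read from 6 lists of related pathways. Over all lists 14 of 77 genes were called, 18.2%, near the 19.3% of all genes. The counts that follow describe the members, and no list was tested against all genes. Of 23 genes for calcium stores, pumps and store-operated entry 3 rose and 1 fell, 17.4%, with a median of 0.028 against 0.017 for all genes. CALM2, a calmodulin gene, rose by 0.55, the store-operated channel gene ORAI1 by 0.84 and the mitochondrial sodium-calcium exchanger SLC8B1 by 0.57, while the store calcium pump ATP2A2 fell by 0.48 (adjusted p = 0.00388, 0.0248, 0.0145 and 0.0141 in limma). Among 10 readers of the calcium signal, RCAN1, an inhibitor of calcineurin that calcineurin itself induces, rose by 1.64 ± 0.31 (SE, adjusted p = 0.00661), and the kinase gene CAMK2G fell by 0.43. Of 11 Gq and phospholipase genes 2 rose and 2 fell, 36.4% called against 19.3% of all genes, the highest share of the 6 lists. RGS2, which ends Gq signalling, rose by 1.79 ± 0.14 (SE, adjusted p = 3.19e-05), and its relative RGS4 by 1.99, whereas RGS5, known from pericytes, fell by 1.27 and PLCG1 by 0.78. The sodium-potassium pump list had 1 of 6 up, the regulator FXYD5 by 0.82. Of 20 other channel genes 3 rose, 15% against 11.4% up over all genes, and none fell. These were the volume-regulated anion channel gene LRRC8A by 0.41, the mitochondrial porin VDAC2 by 0.73 and the connexin GJA1 by 0.42. Of 7 genes that make, clear or sense extracellular purines none was called.

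In juvenile RFH against juvenile WT leaflets none of the 48 genes was called by limma, with 9 of all 6765 genes called, 0.133%. At an unadjusted p under 0.05 there were 8 of the 48 genes, beside 3047 of all 23999 probe sets, so the 8 are not read as a result. The smallest adjusted p was 0.118, of P2RX4. The groups did not overlap in 14 of the 48 genes, 29.2% against 35.8% of all genes, and the median difference was 0.079 for the 48 and 0.067 for all genes. For 44 of the 48 genes the 95% interval lay inside -1 to 1, the exceptions being GRIP1, KCNB2, KCNE1 and KCNIP4. The 10 genes called between adult and juvenile RFH had differences between -0.024 and 0.22 here. CHRNA1 differed by 0.18, with an interval of -0.19 to 0.55. Both comparisons share the juvenile RFH arrays, so their values are not independent.

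P2RX4 read 7.54, 7.63 and 7.55 in the WT arrays, 8.15, 8.35 and 8.13 in the juvenile RFH arrays and 8.52, 8.74, 8.22 and 8.76 in the 4 adult arrays. All juvenile RFH arrays were above all WT arrays, and the adult arrays began at the level of the juvenile RFH arrays. The difference between juvenile RFH and WT was 0.64 ± 0.14 (SE, 1.56-fold, unadjusted p = 0.00095, limma adjusted p = 0.118). It passed when only the juvenile arrays were fitted (limma adjusted p = 0.0203) and with array weights (0.0102). Calls over all probe sets, 28 in the main fit, also rose in both of these fits. P2RX4 was called in 0 of 10 fits that each left out 1 array. The 3 other P2RX4 probe sets differed by 0.81, 0.44 and 0.42, also without overlap, with adjusted p from 0.143 to 0.529, and the 4 probe sets read 1 gene in the same arrays. On these 3 probe sets adult replicate 3 lay below all juvenile RFH arrays, and the other adult arrays lay above them. Macrophage markers moved with P2RX4, at 8.87 to 9.01 in the WT arrays and 9.27 to 9.34 in the juvenile RFH arrays. So did endothelial markers, at 8.13 to 8.48 and 8.52 to 8.81, with no member of either list called, and their part was not tested.

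**Figure D4:**
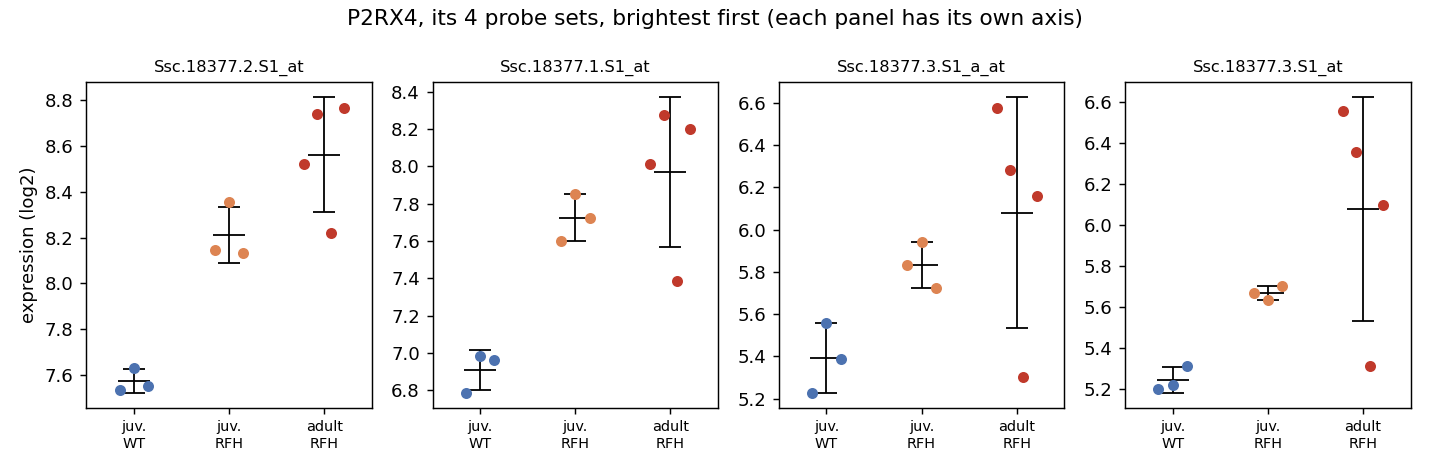
Expression (log2, vertical axis) of P2RX4 by its 4 probe sets; points are arrays and bars the mean ± SD of 3 WT, 3 juvenile RFH and 4 adult arrays. In each panel the juvenile RFH points lie above the WT points, and adult replicate 3 is the lowest adult point.

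KCNF1 had the next smallest p, with 5.67, 5.46 and 5.09 in juvenile WT and 6.03, 5.97 and 5.99 in juvenile RFH replicates. The juvenile RFH values were tight and higher, by 0.59 ± 0.16 (SE, limma adjusted p = 0.169, and 0.0372 with array weights). KCNF1 too was called in 0 of 10 fits that each left out 1 array. The adult values, 5.45 to 5.88, were below all juvenile RFH values and overlapped those of WT. KCNB2, a voltage-gated potassium channel gene, went the other way without overlap, from a mean of 6.19 in WT to 5.66 in juvenile RFH (-0.53, adjusted p = 0.354). The second KCNB2 probe set differed by 0.010 with overlap, and the mean of both by -0.26. GRIP1 had the most negative difference, -0.61 (adjusted p = 0.382). The second probe set of TRPM7 read 5.79, 6.10 and 5.70 in WT and 5.18, 5.10 and 5.22 in juvenile RFH replicates, a difference of -0.70 (adjusted p = 0.0718) that its brighter probe set, at -0.024, did not show. Among the genes of smallest p in the other roles, RYR1 had 3.86 in WT and 4.14 in juvenile RFH, CACNA2D1 had 8.10 and 7.72, and KCNN3 had 4.54 and 4.98. KCNIP4 had 4.35 and 4.98, with an interval of 0.013 to 1.23 for the difference. The smallest adjusted p among these was 0.284, of RYR1, and KCNJ2, TRPV6, CLIC1, P2RY2, CLCN5 and CHRNA1 differed by 0.15, 0.18, 0.20, 0.11, 0.18 and 0.18. GABRA4 had a mean of 7.66 in WT and 7.66 in juvenile RFH, and GRIN1 4.74 and 4.75. The sign of these near-zero differences turned under cyclic loess scaling.

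In juvenile RFH replicate 2, each of the 48 genes differed from the other arrays of the group by less than the cardiac muscle marker mean did. The 9 channel genes known from heart muscle given here were chosen after their values were seen. Any others of the 48 would have met the same statement, so it is not given as a trait of the 9. PLN, of the calcium store list and outside the 48, read 6.88, 9.09 and 6.79 in juvenile RFH replicates 1 to 3. TNNT2, cardiac troponin T, read 8.63 in that array and 3.15 and 3.65 in juvenile RFH replicates 1 and 3. RYR2, the ryanodine receptor of heart muscle, read 4.59, 4.58 and 4.55 in replicates 1 to 3, KCNJ2 read 3.98, 4.12 and 4.01, and KCNIP2 read 5.68, 5.75 and 5.68. Replicate 2 minus the mean of replicates 1 and 3 was 0.082 for KCNQ1, 0.0042 for KCNH2, 0.062 for KCNJ3 and -0.18 for CACNB2. KCNJ5 and KCNJ8, the pore of an ATP-sensitive potassium channel, were highest in replicate 2, with 7.84, 7.97 and 7.71 and 6.52, 6.88 and 6.59 in replicates 1 to 3. The second KCNJ8 probe set read 5.997, 6.83 and 6.47, and the part of heart muscle RNA in these values was not tested. Replicate 2 was the highest of the 3 arrays for 19 of the 48 genes. Over all 48 genes the difference of replicate 2 from the mean of replicates 1 and 3 ran from -0.55 for GRIP1 to 0.44 for KCNIP4. MYH7, a heart muscle myosin, read 5.32, 10.59 and 5.82 in the same 3 arrays. Of the 9 channel genes, RYR2, KCNJ2, KCNQ1, KCNIP2, KCNJ3, CACNB2 and KCNJ8 lay under the array median in every array, where a small rise may not be measurable.

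**Figure D5:**
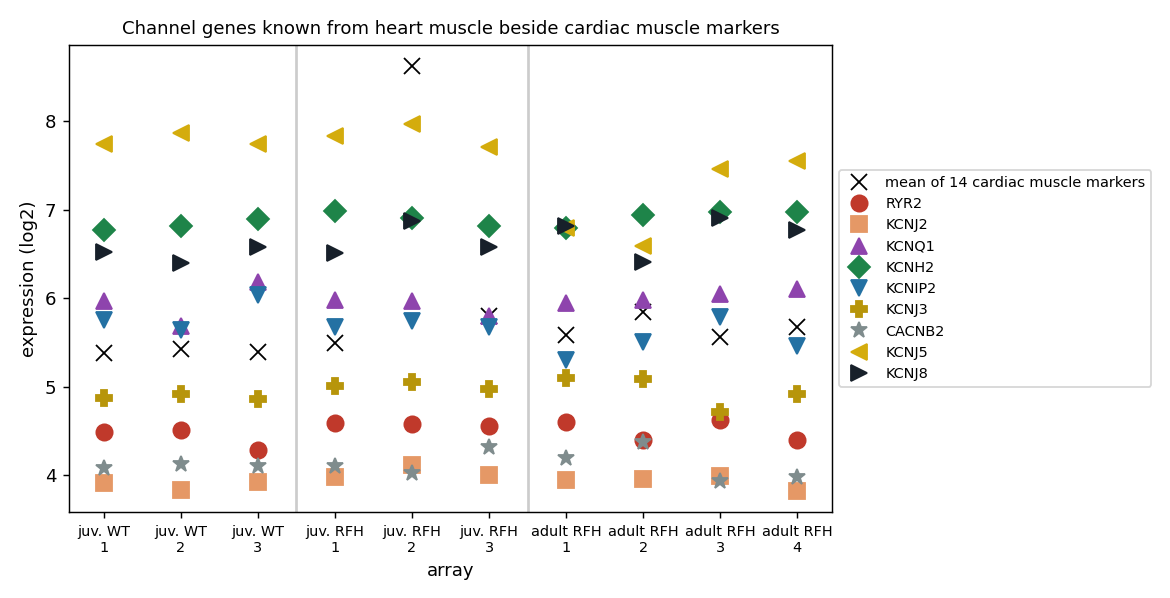
Expression (log2, vertical axis) of 9 channel genes known from heart muscle in each of the 10 arrays (horizontal axis), with the mean of 14 cardiac muscle markers as a cross. The cross rises to 8.63 in juvenile RFH replicate 2, where KCNJ8 reads 6.88 and KCNJ5 7.97, the highest values of the juvenile RFH group for both.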

How the data were processed

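RNA of aortic valve leaflets, kept in RNAlater, was measured on Affymetrix Porcine arrays, 1 array per sample. Values are log2 expression per probe set as deposited by the authors. The submitters' processing notes name R 2.15.2, while the steps of background correction and normalization are not stated in these sources. After 124 control probe sets were left out, 23999 were fitted with limma 3.58.1 (R 4.3.3: lmFit, contrasts, eBayes) over all 10 arrays in 3 groups, with two-sided p-values and Benjamini-Hochberg adjustment over all probe sets. A change was called at an adjusted p under 0.05, and intervals are 95%. The fitting code was tested on simulated data. Each gene was read through the brightest probe set with exactly 1 symbol. Of the 48 genes, 45 matched RefSeq's gene table by identifier. Array number limits the precision.

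Called genes are named with every array's value, and otherwise the gene of smallest p in each role. From each pathway list at most 3 called genes per direction are named. Genes, pathway lists and cell type markers were chosen with earlier results of these data known. The main fit did not pair samples by the replicate numbers of the labels. Correlations of same-numbered deviations ran from -0.16 to 0.19. Differently numbered arrays were not correlated, so these values cannot decide whether the numbers pair samples. Alternatives changed scaling, low values, samples fitted, variance prior, array weights, replicate block, probe set choice and call rule, and left out each array in turn. Genome coordinates and sequences are not used here.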

Additional observations from a re-analysis of the deposited data

Results flagged for a closer look

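In the adult group of 4, GABRA4 read 7.01 in adult RFH replicate 3, far below 8.10 to 8.29 in the others. KCNMA1 read 7.18 in adult RFH replicate 2, far above 6.72 to 6.80 in the others, and TRPV6 read 5.39 in the same array against 5.004 to 5.06. These 3 of 48 genes had 1 array far from the rest by Dixon's criterion, which chance meets in about 1 in 20 groups. No explanation was tested.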

How the results depend on the processing

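Between adult and juvenile RFH, all 10 called genes kept their direction under every alternative run. The count of 10 became 11 under each of 3 scalings, 6 with only the 2 groups compared, 2 when a change of at least 1 was also required, and 5 to 16 when 1 array was left out. With the replicate block 8 genes were called, P2RY12 and TRPM7 being lost. Over all probe sets 4025 were called, 2308 with only the 2 groups, 3922 with the replicate block and 2243 to 4965 with 1 array left out. Between juvenile RFH and WT, 0 genes were called, 1 with only the 2 groups (P2RX4), 2 with array weights (P2RX4 and KCNF1) and 0 with the replicate block. Over all probe sets 28 were called there, with 3047 at an unadjusted p under 0.05. That count was 6 without probe sets below the median, 10 with values below 4 raised to 4, 872 with only the 2 groups, 1171 with array weights, 17 with the replicate block and 2 to 71 with 1 array left out. Differences near 0 changed sign: GABRA4 between juvenile groups gave -0.0069 with cyclic loess, -0.0080 with array weights and -0.085 to 0.14 with 1 array left out, and GRIN1 gave -0.0010 with cyclic loess and -0.044 to 0.073 with 1 array left out. Where a count moved, the cause was not tested. Signal over background limits the 27 genes under every array's median.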
